A study of Mus musculus with 3 samples.

Results

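A set of 10 genes that were high in naive cells and do not encode transcription factors were followed across 3 populations of mouse CD8+ T cells. They were Igfbp4, Cpm, Pecam1, Treml2, Actn1, Als2cl, Rab3ip, Cep97, Trib2 and Dapl1, 10 of the 10191 genes that the expression table names through a probe set with 1 symbol. The genes were selected on these same arrays, by the log2 difference of CXCR3+ innate from naive cells, or were taken as known naive T cell markers. All 10 were found, each through 1 probe set. The study profiled 2 innate populations, CXCR3+ and CXCR3-, and naive CD8+ T cells, with 1 array for each population. All 3 came from spleen and lymph nodes of naive C57BL/6 mice kept free of pathogens, in which green fluorescent protein reports the chemokine receptor CXCR3. Cells were stained for surface markers including CD44 and CD8 and sorted by flow cytometry, and RNA was drawn from about 3 to 5 mice. The labels give neither the age of the animals nor the gates, and innate is used here as the submitters use it, with no further definition.

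Naive T cells circulate between blood and lymph nodes in a resting state, and enter nodes by means that include the chemokine receptor CCR7. Once they have responded to antigen or to cytokines, memory and effector cells lose part of this programme and gain adhesion receptors such as CD44, chemokines and killing functions. Beside transcription factors such as TCF1 and LEF1, naive cells are recognised by a set of transcripts with varied roles: secreted and surface proteins, regulators of the cytoskeleton and of vesicle traffic, and signalling scaffolds. None of the 10 genes encodes a transcription factor, and some were chosen by their level on these arrays alone.

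Promoter windows from RefSeq, mouse build GRCm38.p6, were read for 8 of the 10 genes, and the 250 bases before each start were searched on both strands for 7 short motifs bound by factor families active in T cells. Pecam1 and Treml2 had no window in the table. Windows are shown for 5 genes, because 3 belong to the only members with a match to the forkhead or Krüppel-like motif and 2 belong to the genes that were lowest in CXCR3+ innate relative to naive cells, Trib2 and Rab3ip. Capitals mark a match to GTAAACA (forkhead box O) or CACCC (Krüppel-like factors), in either orientation.
Dapl1, upstream window at chr2:59484403-59484652, plus strand: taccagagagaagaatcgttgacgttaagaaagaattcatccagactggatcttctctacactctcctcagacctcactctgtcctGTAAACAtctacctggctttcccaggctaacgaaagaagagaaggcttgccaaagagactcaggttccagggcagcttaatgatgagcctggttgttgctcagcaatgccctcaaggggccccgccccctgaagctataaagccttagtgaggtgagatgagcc
Igfbp4, upstream window at chr11:99040994-99041243, plus strand: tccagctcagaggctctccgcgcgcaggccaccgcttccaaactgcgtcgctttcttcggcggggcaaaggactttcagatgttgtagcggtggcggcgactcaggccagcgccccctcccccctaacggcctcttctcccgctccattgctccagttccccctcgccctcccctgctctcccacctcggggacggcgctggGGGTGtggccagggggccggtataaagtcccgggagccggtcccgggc
Als2cl, upstream window at chr9:110879924-110880173, plus strand: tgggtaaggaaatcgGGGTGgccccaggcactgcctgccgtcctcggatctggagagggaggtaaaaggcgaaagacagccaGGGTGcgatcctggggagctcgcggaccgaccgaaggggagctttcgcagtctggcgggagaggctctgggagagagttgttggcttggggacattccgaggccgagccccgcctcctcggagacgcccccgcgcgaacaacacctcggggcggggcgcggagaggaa
Trib2, upstream window at chr12:15816786-15817035, minus strand: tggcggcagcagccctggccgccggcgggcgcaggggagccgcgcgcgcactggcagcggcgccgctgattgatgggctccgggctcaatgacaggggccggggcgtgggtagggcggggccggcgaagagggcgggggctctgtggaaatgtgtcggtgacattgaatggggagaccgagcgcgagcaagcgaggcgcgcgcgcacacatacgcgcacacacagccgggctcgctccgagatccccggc
Rab3ip, upstream window at chr10:116950454-116950703, minus strand: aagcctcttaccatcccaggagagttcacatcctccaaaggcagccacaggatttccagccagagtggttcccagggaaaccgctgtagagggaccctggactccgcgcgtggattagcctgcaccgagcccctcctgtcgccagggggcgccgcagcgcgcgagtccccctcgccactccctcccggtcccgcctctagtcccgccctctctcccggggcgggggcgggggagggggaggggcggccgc

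The forkhead motif GTAAACA was found in 1 of 9 member windows, that of Dapl1, 164 to 158 bases before the start, against 3.17% of all 32851 windows. The Krüppel-like motif CACCC was found in 3 of the 9 windows, of Igfbp4 and of both starts of Als2cl, and 52% of all windows hold it. No member window held CTTTGA of TCF and LEF factors (13.8% of all windows), GGTGTGA of T-box factors (3.33%), TGTGGT of RUNX factors (14%) or CCGGAA of ETS factors (12%). The E-box CANNTG lay in 4 of the 9 windows and in 66.2% of all windows. Overlapping matches of different motifs were all counted. The windows of Igfbp4, Trib2 and Rab3ip held 22, 34 and 20 CG dinucleotides, and that of Dapl1 held 4, against a median of 6 over all windows. A match is a stretch of letters and not a measured binding site, and the absence of a match in these 250 bases says nothing about the factor.

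Expression values are log2 values made by the authors with RMA, so that a difference of 1 is 2-fold. With 1 array per population there is no replicate check, no standard error and no test, and every difference below is a difference between single arrays. A gene was counted as 2-fold lower or higher when its values differed by at least 1 and the higher one reached the median of its array, which was 7.64 in CXCR3+ innate and 7.63 in CXCR3- innate, against 7.65 in naive cells. The table holds probe sets that reached 7 on at least 1 array. Exactly equal values were common: 45.01% of genes read the same in CXCR3+ innate and naive cells, while none of the 10 genes was equal on any 2 arrays. The median difference of all genes was 0.00 in each of the 3 comparisons. In these sorted but bulk samples, fewer cells that express a gene and less RNA per cell cannot be told apart.

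**Figure D1:**
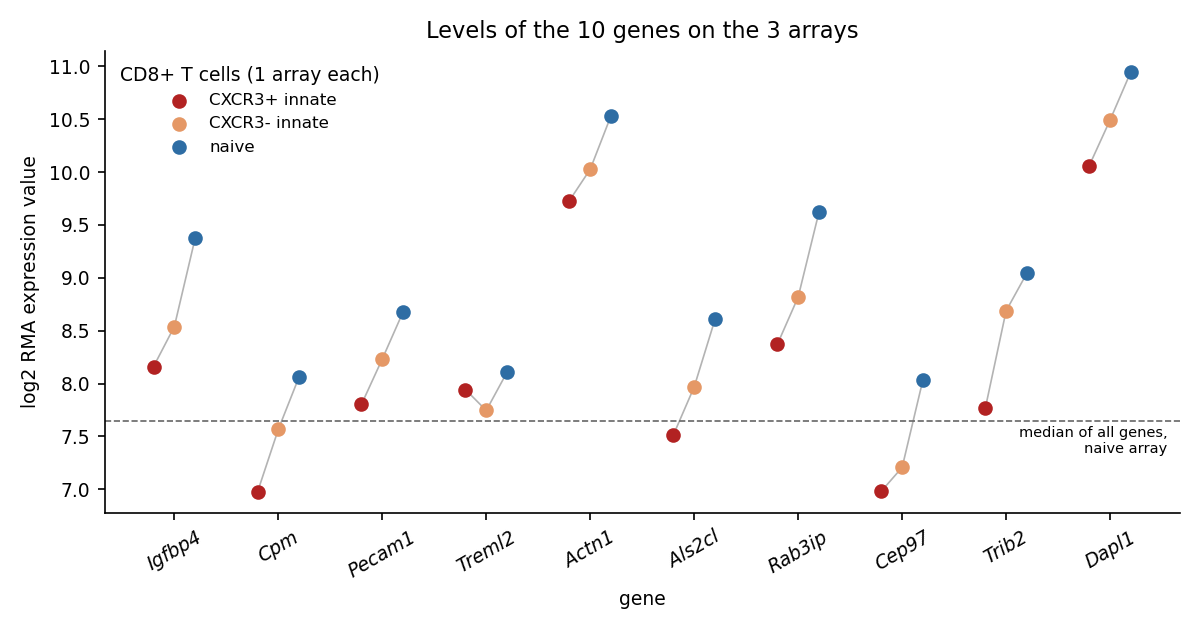
Log2 RMA expression values of the 10 genes (y axis) on the arrays of CXCR3+ innate and CXCR3- innate cells and of naive cells, with 1 point per array joined by a grey line within each gene and a dashed line at 7.65, the median of all genes on the naive array. The naive value is the highest for each of the 10 genes, and the CXCR3+ innate value is the lowest for 9, with Treml2 the exception.

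The naive array gave the highest value for all 10 genes, and the CXCR3- innate value lay between the other values for 9 of them. Both counts follow in part from how the genes were picked. Over all genes, 28.1% were strictly highest in naive cells and 6.42% had a CXCR3- innate value between a lower CXCR3+ innate and a higher naive value. The plot of levels on the 3 arrays shows this stepwise order for every gene but Treml2.

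Igfbp4 encodes a secreted protein that binds insulin-like growth factors and controls their access to the receptor. It read 8.16 in CXCR3+ innate and 8.54 in CXCR3- innate, against 9.37 in naive cells. The CXCR3+ innate value was 2.32-fold lower than the naive one and the CXCR3- innate value 1.78-fold lower, and the CXCR3- innate value lay at 68.8% of the log2 distance from naive to CXCR3+ innate cells. Between the innate populations Igfbp4 differed by -0.38 on the log2 scale.

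The surface proteins differed in pattern. Cpm encodes carboxypeptidase M, a membrane-anchored enzyme that removes the last basic residue from peptides such as kinins. Its values were 6.97 in CXCR3+ innate and 7.57 in CXCR3- innate, against 8.06 in naive cells, which is 2.13-fold lower in CXCR3+ innate and 1.41-fold lower in CXCR3- innate than in naive cells. Only the naive value lay above the median of its array, and the CXCR3+ innate value lay under 7, so Cpm met the level requirement through the naive array alone. Pecam1, which encodes CD31, an adhesion receptor of endothelium, platelets and leukocytes with inhibitory signalling motifs, read 7.80 in CXCR3+ innate and 8.23 in CXCR3- innate, against 8.68 in naive cells. That was 1.83-fold lower in CXCR3+ innate and 1.36-fold lower in CXCR3- innate than in naive cells, short of the 2-fold limit in both. Platelet and endothelial markers had values for 3 of 14 genes, and their summed linear level was 498 in CXCR3+ innate and 498 in CXCR3- innate, against 496 in naive cells. Ppbp read 7.035 on each array and Itga2b 7.04 to 7.07, both close to 7, and Gp9 read 7.865 on each array. Like sums at such levels do not show like amounts of platelets or endothelium. Pf4, Cdh5 and Vwf, defining genes of platelets or endothelium, were not listed. The part of such cells in the Pecam1 values was not tested.

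Treml2 was the exception among the 10. It encodes a receptor of the TREM family found on B cells, T cells and myeloid cells. Its values were 7.94 in CXCR3+ innate and 7.75 in CXCR3- innate, against 8.11 in naive cells. Both innate arrays were below the naive array, by -0.16 in CXCR3+ innate and -0.36 in CXCR3- innate, and the lowest value was that of CXCR3- innate cells. CXCR3+ innate cells therefore read higher than CXCR3- innate cells, by 0.20, whereas the other 9 genes differed in the opposite direction, by -0.92 to -0.23. Treml2 did not stand out from all 10191 genes. Counted from the lowest difference from naive cells, it ranked 1423 in CXCR3+ innate and 673 in CXCR3- innate. All its differences lay inside the 1st to 99th percentile of all genes. A higher value in CXCR3+ than in CXCR3- innate cells was also the more common direction over all genes, with 22.29% lower and 49.04% equal. B cell markers, of which 3 of 14 were listed, summed to a linear level of 683 in CXCR3+ innate and 715 in CXCR3- innate, against 655 in naive cells, and Ms4a1 and Cd79a were not listed. Their part in the Treml2 values was not tested.

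Of the cytoskeleton and traffic genes, Rab3ip had the widest range. It encodes Rabin8, an exchange factor that activates the GTPase Rab8 in transport to the cell surface and to the cilium. Its values were 8.37 in CXCR3+ innate and 8.82 in CXCR3- innate, against 9.62 in naive cells, and it was 2.38-fold lower in CXCR3+ innate and 1.74-fold lower in CXCR3- innate than in naive cells. Als2cl, a relative of the Rab5 exchange factor alsin, read 7.51 in CXCR3+ innate and 7.97 in CXCR3- innate, against 8.61 in naive cells, and was 2.13-fold lower in CXCR3+ innate and 1.56-fold lower in CXCR3- innate than in naive cells.

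Cep97 encodes a centriole protein that, together with CP110, holds back the formation of cilia. It had 6.98 in CXCR3+ innate and 7.21 in CXCR3- innate, against 8.03 in naive cells. Both innate values lay below the median of their arrays and only the naive one above it, as for Cpm. The CXCR3+ innate value also lay under 7. The gene was 2.08-fold lower in CXCR3+ innate and 1.78-fold lower in CXCR3- innate than in naive cells, and at 78.6% its CXCR3- innate value lay nearest to CXCR3+ innate of the 9 genes with a value between. Actn1, which encodes an alpha-actinin that crosslinks actin and couples it to integrins, read 9.73 in CXCR3+ innate and 10.03 in CXCR3- innate, against 10.53 in naive cells. It was 1.74-fold lower in CXCR3+ innate and 1.42-fold lower in CXCR3- innate than in naive cells.

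Trib2 showed the widest gap between the innate populations. It encodes a Tribbles pseudokinase, a scaffold that brings the ubiquitin ligase COP1 to targets such as the transcription factor C/EBP alpha. Its values were 7.77 in CXCR3+ innate and 8.69 in CXCR3- innate, against 9.04 in naive cells. CXCR3+ innate cells were 2.42-fold lower than naive cells, the largest difference from naive cells among the 10 genes, whereas CXCR3- innate cells were only 1.28-fold lower. The CXCR3- innate value thus lay close to the naive one, at 27.9% of the distance, and CXCR3+ innate cells were 1.89-fold lower than CXCR3- innate cells. The choice of the genes used the CXCR3+ innate value, which enters this difference too, so it is given as a description. Dapl1, which encodes a small protein related to death-associated protein, read 10.06 in CXCR3+ innate and 10.49 in CXCR3- innate, against 10.95 in naive cells, and was 1.85-fold lower in CXCR3+ innate and 1.37-fold lower in CXCR3- innate than in naive cells.

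**Figure D2:**
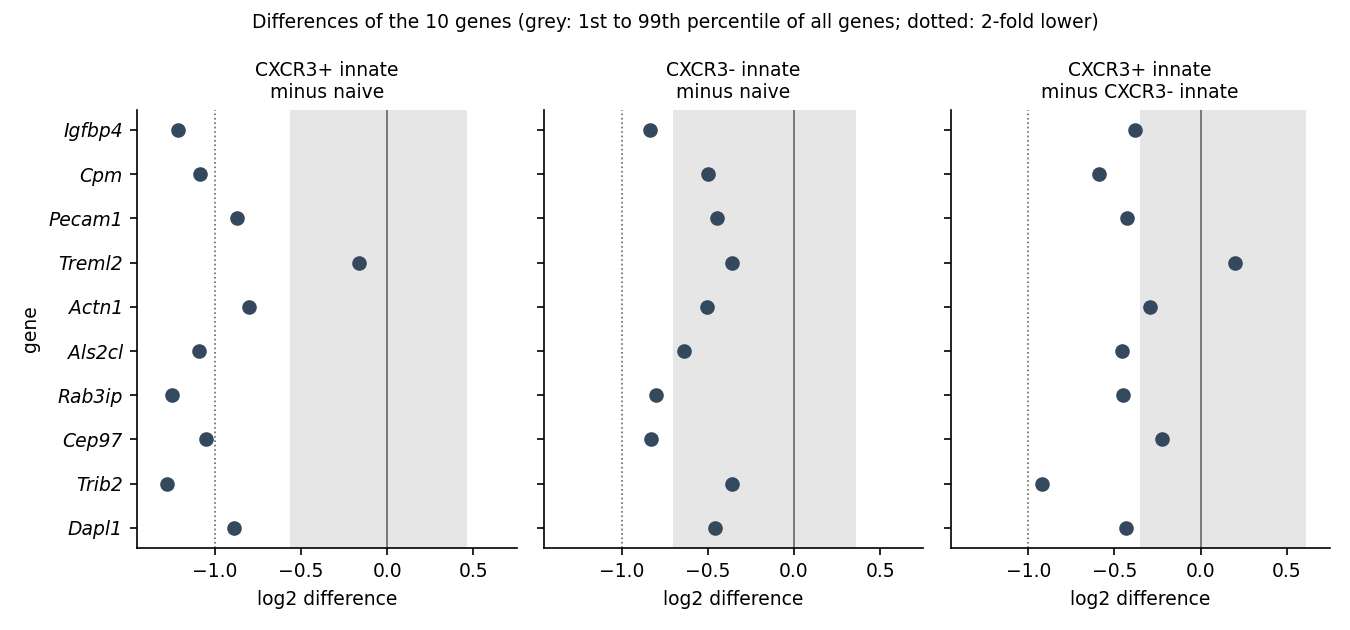
Log2 differences of the 10 genes (x axis), with CXCR3+ innate minus naive on the left, CXCR3- innate minus naive in the middle and the innate populations against each other on the right, 1 point per gene from single arrays, with the 1st to 99th percentile of all genes in grey and a dotted line at 2-fold lower. In the left panel 6 genes lie beyond the dotted line, in the other panels none does, and Treml2 alone lies to the right of 0 in the right panel.

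Compared with naive cells, CXCR3+ innate cells had 6 of the 10 genes at least 2-fold lower and none 2-fold higher, with a median difference of -1.07. Of all genes, 0.0981% were 2-fold lower in this comparison, which is 10 genes, and 0.137% were 2-fold higher. At a limit of 1.5-fold, 9 of the 10 were lower, beside 0.697% of all genes. These shares are given for scale, and the choice of the 10 genes used the same difference, so nothing is read from the contrast. The last gene inside the 2-fold limit was Cep97, at -1.05, and the first outside it was Dapl1, at -0.89, followed by Pecam1 at -0.87. The other 4 genes that were 2-fold lower in CXCR3+ innate than in naive cells were Ifngr2, Itgae, Cd226 and the small nucleolar RNA Snora16a.

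CXCR3- innate cells had all 10 genes below the naive value, but none was 2-fold lower or higher, beside 0.226% of all genes 2-fold lower and 0.0196% 2-fold higher. The median difference was -0.50, with a range of -0.83 for Igfbp4 to -0.36 for Trib2. At a limit of 1.5-fold, 4 of the 10 were lower, namely Igfbp4, Als2cl, Rab3ip and Cep97, against 1.6% of all genes. This comparison and the preceding one share the naive array, so that their values are not independent. Bright genes read lower on the CXCR3- innate array in general: the 2548 genes at or above the 75th percentile of mean level had a median difference of -0.11 from naive cells, and the same genes had one of -0.04 in CXCR3+ innate cells. The part of this shift in the values of the 10 genes was not tested.

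Set against each other, CXCR3+ and CXCR3- innate cells had none of the 10 genes 2-fold apart, beside 0.00981% of all genes 2-fold lower and 0.147% 2-fold higher in CXCR3+ innate. The 9 genes other than Treml2 were lower in CXCR3+ innate and the median difference was -0.43. At 1.5-fold, 1 of the 10 was lower, Trib2, against 0.0785% of all genes. Cpm was 1.51-fold lower, at -0.59, but was not counted, because both innate values lay below the medians of their arrays. These counts and the median reuse the CXCR3+ innate values by which genes were chosen, and nothing is read from them.

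The position of the CXCR3- innate value along the log2 distance from naive to CXCR3+ innate cells set the 9 genes with a value between in order. After Trib2 at 27.9% came Cpm at 45.7%, Pecam1 at 50.9%, Dapl1 at 51.4% and Als2cl at 58.4%. Actn1 at 63.2%, Rab3ip at 64.2%, Igfbp4 at 68.8% and Cep97 at 78.6% followed. Neighbours in this order cannot be separated without replicates. Other scalings of the arrays moved the position of Dapl1 between 31.1% and 51.5% and that of Actn1 between 44.1% and 63.3%, while Trib2 stayed the lowest, at 17.4% to 28.3%, and Cep97 the highest, at 76.7% to 79.1%. The position of Cep97 rests on dim innate values, 6.98 in CXCR3+ innate and 7.21 in CXCR3- innate cells. Scaling does not remove that limit.

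The labels of the populations were compared with marker genes. CD8 T cell markers had 6 of 8 genes listed, all above the median of each array. Of these markers 5 of 6 were below the naive value in CXCR3+ innate cells, with a median of -0.27, and 6 of 6 in CXCR3- innate cells, with a median of -0.42. Bright genes read lower in general. Of the 2548 genes at or above the 75th percentile of mean level, 59.0% were below 0 in CXCR3+ innate minus naive. In CXCR3- innate minus naive 66.0% were. The 1020 genes with the highest mean level had medians of -0.10 in CXCR3+ innate and -0.20 in CXCR3- innate relative to naive cells. The part of this shift in the CD8 marker values was not tested. The summed linear level of the CD8 T cell markers was 9218 in CXCR3+ innate and 8290 in CXCR3- innate, against 11266 in naive cells. Cd8b1 read 11.31 in CXCR3+ innate and 11.29 in CXCR3- innate, against 11.54 in naive cells, and Cd3g 10.72 in CXCR3+ innate and 10.17 in CXCR3- innate, against 11.10 in naive cells. Natural killer cell markers had 2 of 8 genes listed, Eomes and Ncr1, summing to 387 in CXCR3+ innate and 392 in CXCR3- innate, against 280 in naive cells. Eomes, a transcription factor that memory-phenotype CD8+ T cells also express, read 7.92 in CXCR3+ innate and 7.78 in CXCR3- innate, against 7.06 in naive cells. Of the monocyte, macrophage and dendritic cell markers 7 of 16 were listed, summing to 1139 in CXCR3+ innate and 1156 in CXCR3- innate, against 1132 in naive cells, and Csf1r, Lyz2 and Itgax were not listed. Red blood cell and neutrophil markers had 2 of 10 listed, with sums of 416 in CXCR3+ innate and 469 in CXCR3- innate, against 425 in naive cells. For CD4 and regulatory T cells, 2 of 7 were listed, with sums of 308 in CXCR3+ innate and 380 in CXCR3- innate, against 340 in naive cells, and Cd4 was not listed. The part of these genes in the differences of the 10 genes was not tested.

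Other naive T cell genes that do not encode transcription factors were also examined. Of 32 such genes 28 were listed. In CXCR3+ innate minus naive 19 were below 0, 3 above and 6 equal, with a median of -0.16, and in CXCR3- innate minus naive 21 were below 0, 1 above and 6 equal, with a median of -0.26. None was 2-fold different in either comparison. Over all genes 34.2% were below 0 in CXCR3+ innate minus naive and 36.3% in CXCR3- innate minus naive. Ccr7, the lymph node homing receptor, read 11.19 in CXCR3+ innate and 11.56 in CXCR3- innate, against 12.00 in naive cells. S1pr1, the receptor that directs exit from lymph nodes, read 9.34 in CXCR3+ innate and 9.60 in CXCR3- innate, against 10.13 in naive cells, the potassium-chloride transporter gene Slc12a7 read 8.16 in CXCR3+ innate and 8.31 in CXCR3- innate, against 8.93 in naive cells, and Il6st, the signalling chain of the interleukin-6 receptor, read 9.33 in CXCR3+ innate and 9.70 in CXCR3- innate, against 10.04 in naive cells. These 4 were named for having the largest CXCR3+ innate minus naive differences in the list, and all had the stepwise order of the 9 genes. The CXCR3+ innate value used for that choice enters the order too, so nothing is read from these 4. Of the 28 listed genes 11 had that order, beside 6.4% of all genes, many of which had equal values and so could not have it. Npc2 and Ms4a4c, named after their values were seen, did not have it. Npc2, which encodes a lysosomal cholesterol carrier, read 8.86 in CXCR3+ innate and 8.46 in CXCR3- innate, against 9.27 in naive cells, the largest CXCR3- innate difference of the list at -0.81. Ms4a4c read 8.66 in CXCR3+ innate and 8.35 in CXCR3- innate, against 8.11 in naive cells, and was the only gene of the list above naive cells in both innate populations. Between the innate populations the list had a median of 0.00, with 9 genes above 0 and 11 below. Il7r, the interleukin-7 receptor, named after its values were seen, read 11.25 in CXCR3+ innate and 10.85 in CXCR3- innate, against 11.21 in naive cells, so it was not part of the stepwise pattern.

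**Figure D3:**
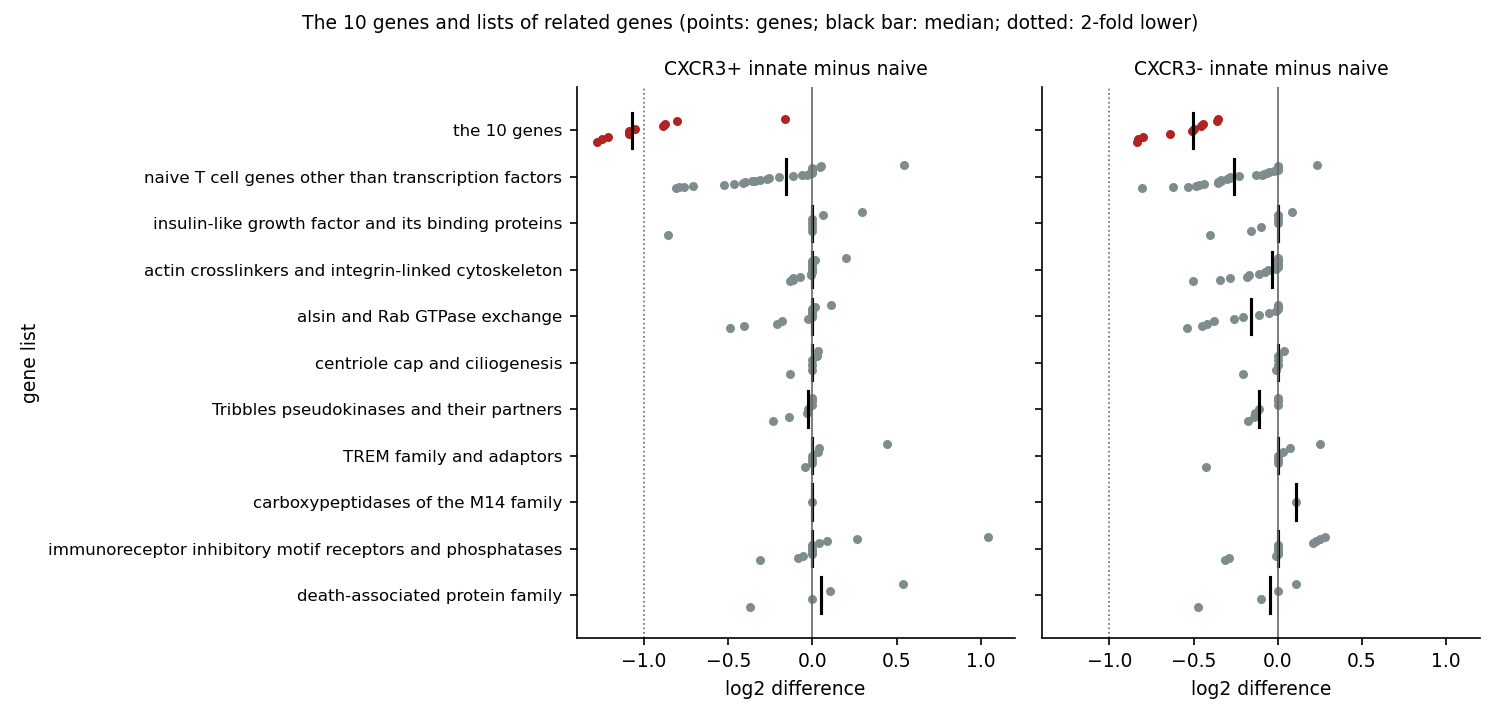
Log2 differences (x axis) of the 10 genes in red and of genes in 10 lists of naive T cell genes, relatives and partners in grey, with CXCR3+ innate minus naive on the left and CXCR3- innate minus naive on the right, 1 point per gene from single arrays, with a black bar at each list's median and a dotted line at 2-fold lower. The median of the 10 genes is -1.07 on the left and -0.50 on the right, that of the other naive T cell genes is -0.16 on the left and -0.26 on the right, and those of the remaining lists lie between -0.16 and 0.11.

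The relatives and partners of the 10 genes were then examined, list by list. In the insulin-like growth factor system 7 of 18 genes were listed, with a median of 0.00 in both comparisons with naive cells. Igf1r, the receptor whose ligands Igfbp4 binds, read 6.49 in CXCR3+ innate and 6.94 in CXCR3- innate, against 7.35 in naive cells, which is -0.86 in CXCR3+ innate and -0.40 in CXCR3- innate relative to naive cells. All 3 values were below the medians of their arrays, so Igf1r could not be counted by the 2-fold rule. Stc2, a stanniocalcin, differed by 0.29 in CXCR3+ innate and 0.08 in CXCR3- innate, Igf2r by 0.06 in CXCR3+ innate and -0.10 in CXCR3- innate, and Igf1 was equal on all arrays.

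Genes around actin and integrins ranged from -0.13 to 0.20 in CXCR3+ innate minus naive, beside -0.80 for Actn1. Of 22 genes 16 were listed, and the median was 0.00 in CXCR3+ innate minus naive and -0.03 in CXCR3- innate minus naive, which became 0.03 under another scaling. Actn4, the other alpha-actinin listed, differed by -0.11 in both, and its CXCR3- innate difference reached 0.03 under another scaling. Zyx, encoding the focal adhesion protein zyxin, differed by 0.20 in CXCR3+ innate and -0.06 in CXCR3- innate, the second of which also reached 0.09. Pdlim1, an actinin-binding protein gene, differed by -0.13 in CXCR3+ innate and -0.50 in CXCR3- innate, and Evl, which promotes actin filament growth, by -0.12 in CXCR3+ innate and -0.34 in CXCR3- innate.

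Among Rab regulators 12 of 20 were listed, with medians of 0.00 in CXCR3+ innate and -0.16 in CXCR3- innate relative to naive cells. Rab5a, an early endosome GTPase of the kind that alsin acts on, differed by -0.49 in CXCR3+ innate and -0.42 in CXCR3- innate, Rab5c by -0.18 in CXCR3+ innate and -0.26 in CXCR3- innate, Gdi2, which extracts Rab proteins from membranes, by -0.41 in CXCR3+ innate and -0.54 in CXCR3- innate, and Trappc10 by -0.21 in both. The partners of Cep97 in centriole capping and cilium formation were sparsely covered, with 6 of 22 listed. Their medians were 0.00 in both comparisons. Pcm1, a centriolar satellite gene, differed by -0.13 in CXCR3+ innate and -0.21 in CXCR3- innate, the capping partner Kif24 by 0.03 in CXCR3+ innate and 0.03 in CXCR3- innate, Ift52 by 0.03 in CXCR3+ innate and -0.01 in CXCR3- innate, the last reaching 0.02 under another scaling, and Mphosph9 was equal. Ccp110, which encodes CP110, was not listed.

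For Tribbles proteins and their partners 7 of 13 genes were listed, with medians of -0.03 in CXCR3+ innate and -0.11 in CXCR3- innate relative to naive cells. Cop1, the ubiquitin ligase that Trib2 recruits, read 7.92 in CXCR3+ innate and 7.92 in CXCR3- innate, against 8.06 in naive cells. The kinase genes Map2k4, Map2k1 and Akt1 differed by -0.23, -0.03 and -0.03 in CXCR3+ innate and by -0.18, -0.13 and -0.11 in CXCR3- innate, and the CXCR3+ innate difference of Akt1 reached 0.01 under another scaling. In the TREM family 7 of 12 were listed, with medians of 0.00. The adaptor gene Hcst, encoding DAP10, read 8.14 in CXCR3+ innate and 7.27 in CXCR3- innate, against 7.69 in naive cells. Like Treml2 it was higher in CXCR3+ than in CXCR3- innate cells, here by 0.87. Treml4, Treml1 and Trem2 differed from naive cells by no more than 0.08 in size.

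The remaining families were those of Pecam1, Dapl1 and Cpm. Of inhibitory receptors and their phosphatases 13 of 21 were listed, with medians of 0.00. Ptpn11, encoding the phosphatase SHP-2 that docks on CD31, differed by -0.31 in CXCR3+ innate and -0.32 in CXCR3- innate from naive cells. Klra9, a natural killer receptor, differed by 1.04 in CXCR3+ innate and 0.23 in CXCR3- innate but stayed below the level requirement, Cd33 differed by 0.26 in CXCR3+ innate and 0.21 in CXCR3- innate, and Cd5 by 0.09 in CXCR3+ innate and 0.00 in CXCR3- innate. Of the death-associated protein genes 4 of 6 were listed, with medians of 0.05 in CXCR3+ innate and -0.05 in CXCR3- innate relative to naive cells. Dap, the namesake of that family, read 8.81 in CXCR3+ innate and 8.17 in CXCR3- innate, against 8.27 in naive cells, while Eif4g2 differed by -0.37 in CXCR3+ innate and -0.48 in CXCR3- innate, Dapk2 by 0.11 in both and Dap3 read the same on all arrays. Carboxypeptidases had 1 of 12 listed, Cpxm2, which differed by 0.00 in CXCR3+ innate and 0.11 in CXCR3- innate.

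Genes with the pattern most like that of the 10 were sought among 5333 others that reached the median level on at least 1 array. The measure was the distance of their differences from naive cells, in both innate populations, to the medians of the 10 genes. The measure rests on 3 arrays. Cd226, encoding the activating receptor DNAM-1, came closest at 0.03, with 7.71 in CXCR3+ innate and 8.24 in CXCR3- innate, against 8.77 in naive cells. Selenop, which encodes the selenium carrier selenoprotein P, followed at 0.20, Tgfbr3, the betaglycan receptor of transforming growth factor beta, at 0.21, the guanylate-binding protein gene Gbp9 at 0.27 and Ccr7 at 0.27. Tgfbr3 read 6.85 in CXCR3+ innate and 7.39 in CXCR3- innate, against 7.76 in naive cells. Gbp9 read 7.31 in CXCR3+ innate and 7.50 in CXCR3- innate, against 8.17 in naive cells. Both genes lay below the medians of the innate arrays and met the level requirement through the naive array alone.

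Genome position was a property that the choice had not used. In the RefSeq gene table, used here for gene order only, the 10 genes lay on 7 chromosomes, and Igfbp4 and Ccr7 were separated by 1 protein-coding gene, Tns4, which was not listed. Rab3ip and Cpm lay on chromosome 10 with 9 protein-coding genes between them, of which 3 were listed. Of those, Cct2, a chaperonin subunit, read 9.93 in CXCR3+ innate and 9.36 in CXCR3- innate, against 10.03 in naive cells, Yeats4 8.33 in CXCR3+ innate and 8.14 in CXCR3- innate, against 8.70 in naive cells, and Cpsf6 7.83 in CXCR3+ innate and 7.87 in CXCR3- innate, against 8.16 in naive cells. All 3 were below the naive value in both innate populations, by -0.38 to -0.10 in CXCR3+ innate and by -0.68 to -0.29 in CXCR3- innate. Only Cpsf6 had the stepwise order of Rab3ip and Cpm.

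**Figure D4:**
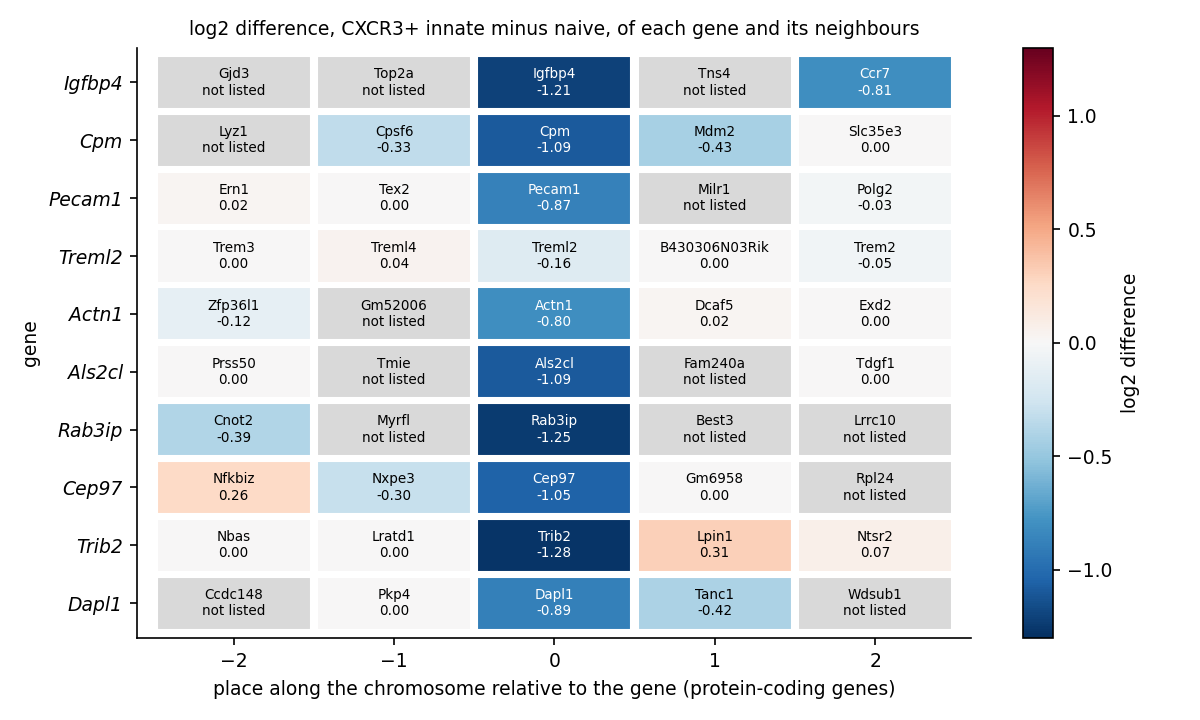
Log2 difference in CXCR3+ innate minus naive cells (colour and number) of each of the 10 genes in the centre column and of the protein-coding genes up to 2 places away on either side, from single arrays, with grey for genes that were not listed. Ccr7, 2 places from Igfbp4, has the lowest neighbour value at -0.81, and 9 of the 26 listed neighbours are below 0.

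Within 2 places of the 10 genes lay 40 protein-coding genes, of which 26 were listed. Their median difference was 0.00 in CXCR3+ innate minus naive, with a range of -0.81 to 0.31, and 9 of the 26 were below 0, beside 34.2% of all genes. In CXCR3- innate minus naive 10 of the 26 were below 0, beside 36.3% of all genes, with a range of -0.44 to 0.08. None was 2-fold different. In CXCR3+ innate minus naive the lowest neighbours after Ccr7 were Mdm2, next to Cpm, at -0.43, and Tanc1, next to Dapl1, at -0.42. The highest in that comparison was Lpin1, next to Trib2, at 0.31. The neighbours of Treml2, which include Trem3, Treml4 and Trem2 of its own family, ranged from -0.05 to 0.04 in CXCR3+ innate minus naive. In CXCR3- innate minus naive they ranged from -0.12 to 0.08.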

How the data were processed

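The data were 3 arrays, 1 for each of 3 CD8+ T cell populations. The authors deposited log2 expression values that, per the submitters' processing notes, come from RMA run by Affymetrix Expression Console, whose version is not given in the sources used here. The method corrects background, gives the arrays a common distribution and summarises each probe set by median polish. The table held 12417 probe sets, each reaching 7 on at least 1 array. The platform annotation gave 1 symbol for 10576 probe sets, several for 1108 and none for 733. Only the first were used, and where a gene had several, as 273 did, their log2 values were averaged. A gene called not listed has no probe set with 1 symbol in the table and may share one with several symbols or lie on one with none.

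With 1 array per group no test was possible, and the samples were compared by the 2-fold rule over all 10191 genes. That rule was tested on simulated data, which give no error rate for these single arrays. Named genes were the 10 genes, the 4 listed genes with the largest CXCR3+ innate minus naive difference in each list, the 5 nearest patterns and genome neighbours. The genes and lists were chosen with earlier results of these data known. Alternatives were cyclic loess, quantile normalization, median centring, a linear offset of 16, the probe set with the highest mean, other filters on dim genes and limits of 1.5-fold and 3-fold. The number of arrays limits the precision. Tools were limma 3.58.1 under R 4.3.3, and pandas 2.3.3 and numpy 2.4.6 under Python 3.11.15.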

Additional observations from a re-analysis of the deposited data

Results flagged for a closer look

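Over the 162 genes with values in the lists, the nearest patterns and the genome neighbours, 15 lay above naive cells in one innate population and below them in the other. None of the 15 is one of the 10 naive-cell genes, each population has 1 array, and the difference was not tested. The same count was not made over all 10191 genes. In 11 of the 15 the CXCR3+ innate value was the higher. Over all genes 22.29% read lower in CXCR3+ than in CXCR3- innate cells and 49.04% read the same. A higher CXCR3+ innate value was thus the more common direction in general, and nothing is read from the split. Some crossings among the 15 were small, such as 0.005 above naive for Cd3d in CXCR3+ innate and for H2-Ob in CXCR3- innate cells. The widest gaps of CXCR3+ innate against CXCR3- innate cells were those of Hcst, at 0.87, with 0.44 in CXCR3+ innate and -0.42 in CXCR3- innate relative to naive cells, and of Dap, at 0.64, with 0.54 in CXCR3+ innate and -0.10 in CXCR3- innate. Cd3d, a chain of the T cell receptor complex, had a gap of 0.53, with a difference of 0.005 in CXCR3+ innate and -0.52 in CXCR3- innate. Rab8a and Rab8b, encoding forms of the GTPase that the Rab3ip protein activates, had gaps of 0.49 and 0.46, with differences of 0.11 for Rab8a and 0.01 for Rab8b in CXCR3+ innate and of -0.38 for Rab8a and -0.45 for Rab8b in CXCR3- innate. The gap was 0.40 for Il7r, 0.33 for Ptpn6, which encodes the phosphatase SHP-1, 0.26 for Zyx, 0.16 for Igf2r, 0.14 for Dcaf5, a neighbour of Actn1, and 0.048 for Ift52. The CXCR3+ innate value was the lower for 4 genes, with gaps of -0.53 for the inhibitory receptor gene Ctla4, -0.34 for Ceacam1, -0.27 for the neutrophil gene S100a9 and -0.069 for the B cell gene H2-Ob. For Zyx and Ift52 the CXCR3- innate value lay above the naive one under another scaling.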

How the results depend on the processing

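All 10 genes stayed below the naive value in both innate populations under every scaling tried, and Treml2 alone stayed higher in CXCR3+ than in CXCR3- innate cells, by 0.18 to 0.20. In CXCR3+ innate minus naive the count of 6 genes at least 2-fold lower became 0 at 3-fold, and Cep97 read -0.97 with the linear offset, short of 2-fold. Cpm and Cep97 were not counted when the higher value had to reach the 75th percentile. The count of 0 genes became 4 in CXCR3- innate minus naive and 1 in CXCR3+ innate minus CXCR3- innate at 1.5-fold. The median difference in CXCR3- innate minus naive was -0.39 after quantile normalization, against -0.50; the cause was not tested. Of 270 values of single genes under an alternative, 253 kept their direction and their side of the limit, 9 no longer passed, 8 newly passed and none changed direction. The choice of probe set, the filters and the fold limits leave the values of these genes unchanged. The linear offset keeps the order of the values of a gene with 1 probe set, so it could not change a direction either. Median centring shifted the differences by only 0.017 in CXCR3+ innate minus naive and 0.03 in CXCR3- innate minus naive. The smallest difference of the 10 genes from naive cells was -0.16. Direction could therefore change only under quantile normalization or cyclic loess. No paired analysis was possible because each population has 1 array. Depth cannot be read from these arrays, and no difference has a replicate check.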
